A study of Mus musculus with 24 samples.

Results

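The Hoxb cluster is 1 of the 4 clusters of mouse Hox genes, and its 10 members, Hoxb1 to Hoxb9 and Hoxb13, all lie on the plus strand of chromosome 11. Its chromatin was described here from 7 deposited lists of ChIP-seq peaks, taking every peak that overlapped a member's gene body with 10 kb on either side (build mm10) and giving it to the member with the nearest transcription start. The 10 members are 10 of 21910 coding genes in the annotation used. Their windows joined into 2 blocks of 139932 bp in all, chr11:96184316-96207447 around Hoxb13 and chr11:96261457-96378256 from Hoxb9 to Hoxb1.

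ChIP-seq measured 3 histone marks. The 24 libraries fell into 14 groups, with 14 immunoprecipitations (2 per condition and mark) and 10 inputs. Forelimb buds came from E10.5 embryos of 32 to 35 somites on a Swiss Webster background, either WT or Shh-/- (the null allele Shh tm1amc), at 400000 cells per immunoprecipitation. Buds were pooled over embryos and litters, and by the study's methods the WT controls were WT and heterozygous littermates together. Hedgehog-responsive NIH3T3 mouse fibroblasts, an established line, were grown in low serum for 48 h with 400 nM purmorphamine, an agonist of the Hedgehog transducer Smoothened, or with its solvent DMSO, at 1000000 cells per immunoprecipitation, and the labels name LIF in both arms. H3K27ac was measured in all 4 of these conditions, H3K4me2 in WT and Shh-/- limb, and H3K27me3 in Shh-/- limb (WT limb H3K27me3 was not analysed here). The H3K27ac antibody of the limb samples differed from that of the NIH3T3 samples.

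Hox genes encode homeodomain transcription factors that give cells their position along the body axis, and within a cluster the order of the genes follows the order in which they come on in time and in space. Active Hox promoters and enhancers carry H3K27ac, H3K4me2 marks promoters and enhancers whether or not they are acetylated, and silent Hox genes lie under broad Polycomb domains of H3K27me3. In the forelimb bud, Sonic hedgehog (SHH) from the posterior margin patterns the digits, and the Hoxa and Hoxd clusters are the ones best known for their part in limb growth and digit patterning, whereas Hoxb genes are best known for the hindbrain, the vertebrae and the place of the forelimb along the flank.

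A few stretches of the cluster are printed as examples, in the plus-strand sequence of GRCm38.p6 (mm10) with each CpG in capitals. The first 3 lines are 200 bases around the position of the largest statistic in the cluster's best-ranked H3K27ac peak of WT limb, its best-ranked H3K27ac peak of Shh-/- limb and its best-ranked H3K27me3 peak of Shh-/- limb. The next 2 are the best-ranked H3K27ac peak that had no overlapping peak in the other genotype, printed whole, for WT and for Shh-/-. The last is the RefSeq promoter of Hoxb4, whose start lay under an H3K27ac peak of the Shh-/- list that had no WT counterpart.
WT H3K27ac, Hoxb3 intron, chr11:96332876-96333075: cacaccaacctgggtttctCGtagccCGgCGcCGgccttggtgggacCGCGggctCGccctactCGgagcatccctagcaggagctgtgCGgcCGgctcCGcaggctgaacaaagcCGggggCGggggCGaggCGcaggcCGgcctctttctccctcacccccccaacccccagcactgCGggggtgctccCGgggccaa
Shh-/- H3K27ac, 3′ of Hoxb2, chr11:96354576-96354775: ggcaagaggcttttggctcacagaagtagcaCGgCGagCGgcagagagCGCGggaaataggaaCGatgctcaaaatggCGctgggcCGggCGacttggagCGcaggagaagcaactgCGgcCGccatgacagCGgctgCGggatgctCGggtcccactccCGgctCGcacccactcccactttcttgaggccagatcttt
Shh-/- H3K27me3, 3′ of Hoxb13, chr11:96200926-96201125: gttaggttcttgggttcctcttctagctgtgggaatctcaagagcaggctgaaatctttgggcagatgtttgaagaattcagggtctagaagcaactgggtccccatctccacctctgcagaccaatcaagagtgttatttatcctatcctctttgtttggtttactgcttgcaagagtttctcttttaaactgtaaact
WT only H3K27ac, Hoxb3 intron, chr11:96326800-96327049: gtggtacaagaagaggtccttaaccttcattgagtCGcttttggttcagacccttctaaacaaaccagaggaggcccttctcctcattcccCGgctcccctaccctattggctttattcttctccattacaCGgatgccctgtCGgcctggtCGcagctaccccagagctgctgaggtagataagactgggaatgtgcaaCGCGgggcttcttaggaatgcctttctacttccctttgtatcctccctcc
Shh-/- only H3K27ac, near the Hoxb3 start, chr11:96343300-96343549: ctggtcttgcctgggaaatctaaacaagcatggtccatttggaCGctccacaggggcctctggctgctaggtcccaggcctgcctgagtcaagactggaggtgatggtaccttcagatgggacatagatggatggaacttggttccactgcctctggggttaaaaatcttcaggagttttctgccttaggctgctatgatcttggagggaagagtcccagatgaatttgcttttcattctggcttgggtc
Hoxb4 promoter, chr11:96318017-96318266: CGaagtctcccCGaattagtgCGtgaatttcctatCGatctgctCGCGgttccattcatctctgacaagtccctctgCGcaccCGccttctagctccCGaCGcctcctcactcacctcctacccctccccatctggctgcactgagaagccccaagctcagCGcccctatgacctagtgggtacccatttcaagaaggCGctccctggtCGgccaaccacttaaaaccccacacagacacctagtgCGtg
The acetylated windows at Hoxb3 and Hoxb2 held 18 and 17 CpG with a GC content of 73% and 63%, whereas the H3K27me3 window beside Hoxb13 held 0 CpG at 43% GC. The peak found only in WT held 7 CpG and the peak found only in Shh-/- held 1 CpG in 250 bases. These single windows do not stand for their marks. In 300 bp windows, Hoxb H3K27me3 peaks held a median of 7 CpG, and Hoxb H3K27ac peaks 8.5 in WT and 6 in Shh-/-. Unshared Hoxb H3K27ac peaks held a median of 4 in WT and 5 in Shh-/-. Hoxb4 had 14 CpG in the 250 bases before its start, and 29.4% of 32851 RefSeq promoters had at least as many.

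The cluster was marked in all 5 limb lists and in neither NIH3T3 list. H3K27ac gave 32 Hoxb peaks of 49679 in WT limb and 48 of 43916 in Shh-/- limb. H3K4me2 gave 39 of 36585 in WT and 60 of 38468 in Shh-/-, and H3K27me3 gave 45 of 20830 in Shh-/-. The NIH3T3 lists held 0 Hoxb peaks of 90989 with DMSO and 0 of 87779 with purmorphamine. Each list was called on both replicates of a condition together, so no value below has a replicate spread and no difference between conditions could be tested.

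Coverage was also measured per length. Peaks covered 105 bp per kb of the Hoxb blocks for H3K27ac in WT limb and 161 bp per kb in Shh-/- limb, against 8.53 and 7.23 bp per kb of the genome. H3K4me2 covered 210 bp per kb in WT and 192 bp per kb in Shh-/-, and H3K27me3 covered 354 bp per kb against 3.85 bp per kb of the genome. Between WT and Shh-/-, H3K27ac therefore covered more of the cluster in Shh-/- limb, while the whole H3K27ac list covered less of the genome. H3K4me2 covered slightly less of the cluster in Shh-/- limb, as it did of the genome, where it went from 8.05 to 7.24 bp per kb.

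**Figure D1:**
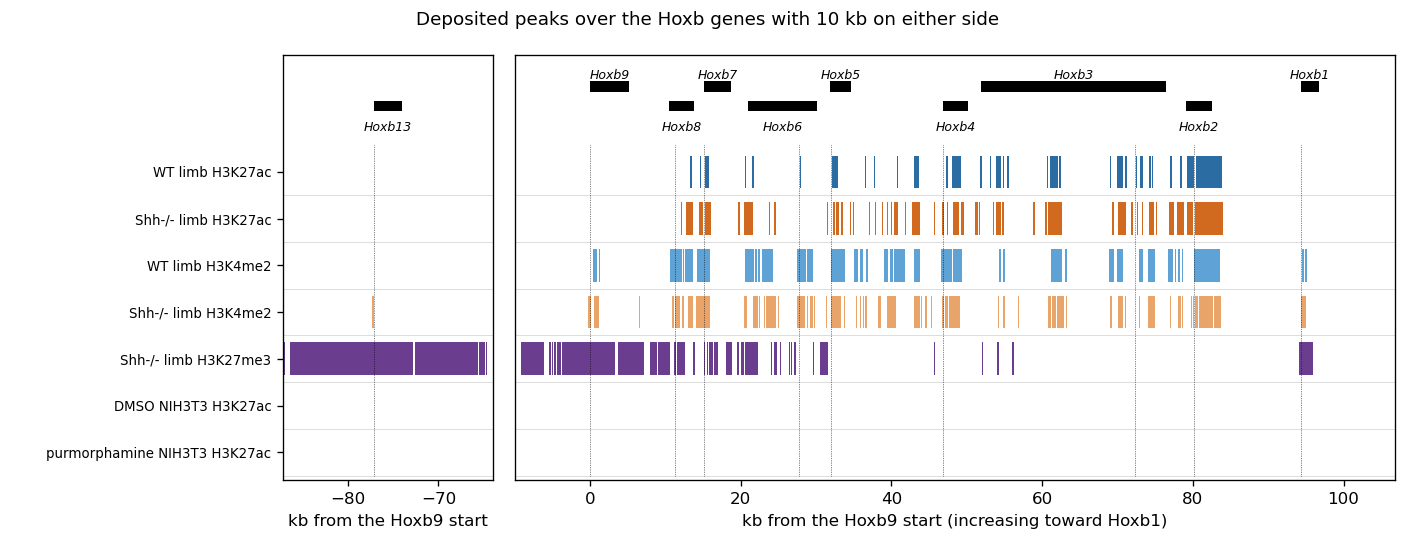
Deposited peaks of the 7 lists over the 2 Hoxb blocks, by distance from the Hoxb9 start in kb; black boxes are gene bodies, dotted lines are transcription starts and each coloured bar is a peak. H3K27ac peaks run from Hoxb8 to Hoxb2, H3K27me3 lies mostly at Hoxb13, Hoxb9 and Hoxb8 with a separate peak at Hoxb1, and both NIH3T3 tracks are empty.

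Limb identity of the samples was checked with lists of marker genes, counting starts with an H3K27ac peak from 2 kb before to 1 kb after the start. All 8 of 8 forelimb mesenchyme genes, such as Tbx5 and Prrx1, had one in WT and in Shh-/- limb, with a summed 113801 and 108680 bp under peaks. Neural tube genes, which mark a tissue that uses the Hoxb genes strongly, had 0 of 6 in both genotypes and 0 bp under H3K27ac peaks within 10 kb of their bodies. Somite and muscle genes, from a neighbouring tissue that also expresses Hoxb genes, had 2 of 6 in both, with Tcf15 in common, Meox1 in WT and Pax3 in Shh-/-, and their summed coverage was 1250 bp in WT and 2150 bp in Shh-/-, with the muscle regulators Myf5 and Myod1 at 0 bp in both. The part of that difference in the Hoxb values was not tested, and in a bud of mixed cells more marked cells cannot be told apart from more mark per cell. Limb ectoderm had 0 of 5 starts in both (2400 bp in WT and 1550 bp in Shh-/-), blood 0 of 4 in both (800 and 1150 bp) and endothelium 1 of 4 in both (2900 and 1650 bp). Hindlimb genes had 0 of 2 in WT and 1 of 2 in Shh-/- (Tbx4), while their summed coverage was 6176 bp in WT and 3976 bp in Shh-/-. The fibroblast list had 6 of 6 starts with a peak in NIH3T3 cells in both arms.

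The anterior members, Hoxb1, Hoxb2 and Hoxb3, are best known for hindbrain segments. Hoxb2, which acts in the hindbrain and in cranial motor neurons, was the most acetylated member by share of gene body, with 86.4% of chr11:96350525-96354012 under H3K27ac peaks in both genotypes. Its peak chr11:96351850-96355299 ranked 3215 in WT with a log2 ratio of ChIP to input of 5.04, and the matching peak chr11:96351800-96355449 ranked 468 in Shh-/- with a log2 ratio of 5.94. No H3K27me3 peak touched Hoxb2 or its flanks. Hoxb3, the longest member, had 20.6% of its body under H3K27ac in WT and 24.8% in Shh-/-. Its best-ranked peak lay in an intron and holds the CpG-rich sequence printed first, at rank 1953 (chr11:96332450-96333599, log2 ratio 5.43) in WT and rank 923 (chr11:96332300-96334099, log2 ratio 5.58) in Shh-/-. Hoxb3 and Hoxb2 thus carried the cluster's best-ranked H3K27ac peaks in both genotypes.

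Hoxb1, which sets the identity of a single hindbrain segment and keeps itself on there with PBX cofactors, stood apart from both neighbours. It had 0 bp under H3K27ac within 10 kb of its body in WT and in Shh-/- limb. An H3K27me3 peak at chr11:96365550-96367399 (rank 2484, log2 ratio 3.41) covered its start and 65.8% of its body. H3K4me2 was present and weak, with 2 peaks in each genotype, covering 350 bp in WT (best rank 33489, log2 ratio 2.23) and 550 bp in Shh-/- (best rank 29896, log2 ratio 2.60). The stretch before its start is printed from RefSeq (GRCm38.p6, plus strand), up to the last base before the annotated gene, because the H3K27me3 peak covers it and because Hoxb1 is known for autoregulation through paired HOX and PBX sites, and its 1 match to the HOX-PBX letters TGATNNAT, searched on both strands, is in capitals.
Hoxb1 promoter, chr11:96365558-96365751: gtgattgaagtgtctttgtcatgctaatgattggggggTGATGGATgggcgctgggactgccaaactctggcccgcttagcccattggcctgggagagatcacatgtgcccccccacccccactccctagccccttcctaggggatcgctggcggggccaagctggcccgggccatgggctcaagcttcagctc
The match lay at chr11:96365596-96365603. The same letters occurred in 7.68% of the 32851 RefSeq promoters, each read over the 250 bases before its start, and a match is a description of letters and not a bound site.

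The central members, Hoxb4, Hoxb5 and Hoxb6, pattern the neck and upper trunk. Hoxb4, also known for expanding blood stem cells in culture, had 43.0% of its body under H3K27ac in WT and 41.0% in Shh-/-. In WT its best-ranked peak lay in the gene at chr11:96319450-96320649 (rank 6730, log2 ratio 4.36), and in Shh-/- it lay upstream at chr11:96314150-96315249 (rank 5389, log2 ratio 4.29). Hoxb5, whose loss in mice shifts the shoulder girdle, had 26.9% of its body covered in WT and 38.5% in Shh-/-. Its best-ranked peaks both began just after the start, at chr11:96303600-96304349 in WT (rank 12120, log2 ratio 3.78) and at chr11:96303650-96303999 in Shh-/- (rank 15736, log2 ratio 3.30). Hoxb5 therefore had a larger acetylated share of its body in Shh-/- limb but a lower log2 ratio at its start. Hoxb6, a gene of the lateral plate and ribs, carried H3K27ac over 4.40% of its body in WT and 9.61% in Shh-/-. The peaks nearest to its start stood low in both lists (best rank 33007 in WT and 39401 in Shh-/-). The first bases of its body in Shh-/- were covered by a better-ranked peak, chr11:96291900-96293049 (rank 9932, log2 ratio 3.72), which lies nearer to the Hoxb7 start used.

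The posterior members, Hoxb7, Hoxb8, Hoxb9 and Hoxb13, pattern the thoracic and more caudal trunk. Hoxb7, expressed in the trunk and the kidney ducts, had 12.7% of its body under H3K27ac in WT and 24.0% in Shh-/-. Its best-ranked WT peak, chr11:96286750-96287199 over the start, ranked 19187 with a log2 ratio of 3.33. In Shh-/- the best-ranked peak nearest to the Hoxb7 start was chr11:96284200-96285149, within the last part of Hoxb8, at rank 7838 with a log2 ratio of 3.94. Hoxb8, which induces a second SHH source when expressed anteriorly in the limb bud, had 5.86% of its body covered in WT and 30.8% in Shh-/-. Hoxb9, which acts with its paralogues upstream of Shh at the posterior limb margin, and Hoxb13, a gene of the tail and prostate, had 0% of their bodies under H3K27ac in both genotypes.

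**Figure D2:**
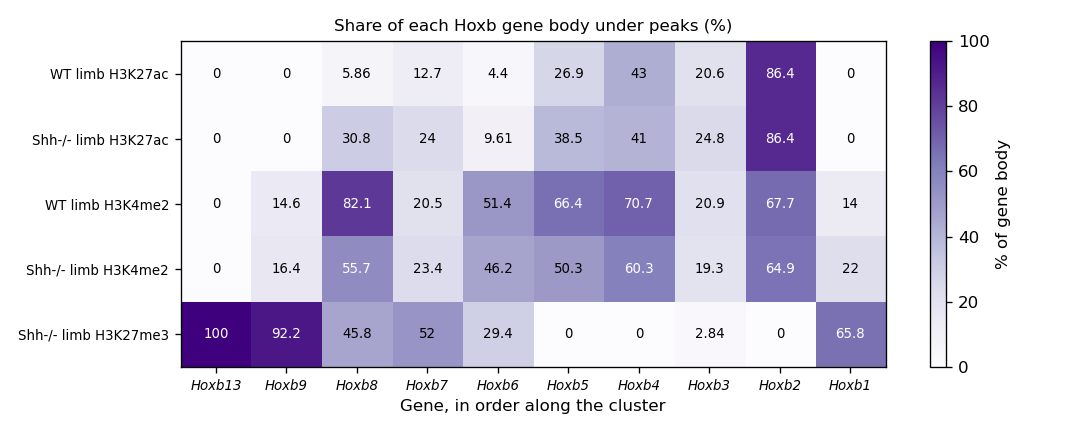
Share of each gene body under peaks, in percent, for the 10 Hoxb genes in order along the chromosome (columns) and the 5 limb lists (rows); darker cells are higher. H3K27me3 is highest at Hoxb13 (100%) and Hoxb9 (92.2%) and 0% at Hoxb5, Hoxb4 and Hoxb2, while H3K27ac is highest at Hoxb2 (86.4%) and 0% at Hoxb13, Hoxb9 and Hoxb1.

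The comparison of WT and Shh-/- limb asks which marks depend on SHH. Counted per gene body with 10 kb on either side, 8 of 10 members had any base under H3K27ac peaks, and all 8 had more in Shh-/- limb. Hoxb9 had 300 bp in WT and 1550 bp in Shh-/-, all of it in its flank. Hoxb8 had 1150 and 3900 bp, and Hoxb7 had 1250 and 4100 bp. These neighbouring posterior members, whose windows overlap and so share peaks, had the highest ratios of Shh-/- to WT base pairs in the cluster, 5.17 at Hoxb9, 3.39 at Hoxb8 and 3.28 at Hoxb7.

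The ratio then became smaller toward the anterior end. Hoxb6 had 2350 bp in WT and 6400 bp in Shh-/- (ratio 2.72), and Hoxb5 had 2100 and 4250 bp (ratio 2.02). Hoxb4 had 4000 and 6100 bp (ratio 1.53), just past 1.5-fold. Hoxb3, with 12200 and 15624 bp, and Hoxb2, with 6875 and 8750 bp, stayed under 1.5-fold with ratios of 1.28 and 1.27. In all, 6 of the 8 members were at least 1.5-fold higher in Shh-/- limb, where 9.98% of 13459 coding genes with an H3K27ac peak in either list were, and 0 of 8 were at least 1.5-fold higher in WT, where 35.2% of genes were. The median ratio was 2.37 for the members and 0.830 for all these genes. Windows of neighbouring members overlap and share peaks, so the members are not separate observations and neighbouring ratios are not independent. Over gene bodies without flanks, which do not overlap in this cluster, 3 of 7 members passed (Hoxb8, Hoxb7 and Hoxb6) against 11.6% of genes.

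Over the same windows, the base pairs under H3K4me2 peaks did not show this shift. Only Hoxb1 (350 bp in WT, 550 bp in Shh-/-) and Hoxb13 (0 bp and 150 bp) of 10 members had at least 1.5-fold more H3K4me2 in Shh-/-, where 4.94% of 16109 genes did, and both values rest on narrow peaks. The median ratio of H3K4me2 base pairs was 0.905 for the members and 0.900 for all genes. Hoxb8 had 8011 bp in WT and 6666 bp in Shh-/-, the opposite direction to its H3K27ac.

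The other Hox clusters gave a different count. Among genes with any base under H3K27ac peaks, 0 of 11 Hoxa, 0 of 6 Hoxc and 0 of 9 Hoxd genes had at least 1.5-fold more in Shh-/-. Over all such coding genes the share was 9.98%, so 0 in lists of this size is close to that share. The median ratio was 0.920 for Hoxa, 1.29 for Hoxc and 0.931 for Hoxd, so the Hoxc genes with peaks in both lists (Hoxc4, Hoxc5, Hoxc6 and Hoxc8) were also above 1. Hoxd13, the digit gene at the posterior end of its cluster, had 5650 bp in WT and 0 bp in Shh-/-. At the posterior end of Hoxb, by contrast, Hoxb13 was at 0 bp in both genotypes and Hoxb9 had its few bases in Shh-/- more than in WT. Other lists were counted in the same way, over genes with any H3K27ac base. At least 1.5-fold more in Shh-/- was found at 0 of 8 TALE homeodomain genes (cofactors of HOX proteins). It was found at 0 of 14 regulators of Hox genes (such as Cdx, retinoic acid and Polycomb genes) and 0 of 5 forelimb genes downstream of HOX proteins. Hand2, in the last list, had a ratio of 0.249.

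**Figure D3:**
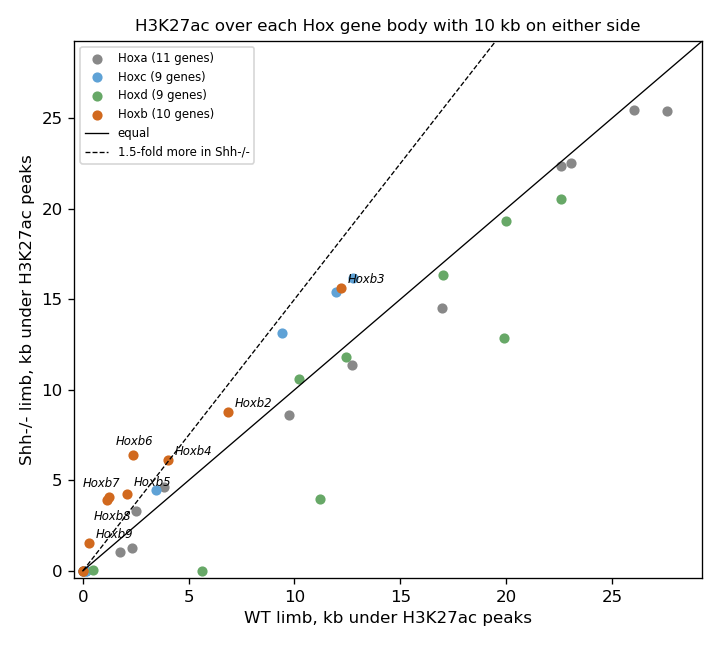
Kilobases under H3K27ac peaks over each Hox gene body with 10 kb on either side, WT limb on the x axis and Shh-/- limb on the y axis; each point is a gene, coloured by cluster, the solid line marks equal values and the dashed line 1.5-fold more in Shh-/-. Of the Hoxb points with any H3K27ac, 6 of 8 lie above the dashed line and no point of the other 3 clusters does. Windows of neighbouring genes overlap, so points of a cluster can share peaks.

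Peaks were next compared one by one, calling a peak shared if a peak of the other genotype overlapped it by at least 1 bp. Of the Shh-/- Hoxb H3K27ac peaks, 26 of 48 (54.2%, 95% Wilson interval 40.3 to 67.4) had no WT counterpart, against 38.4% of the whole Shh-/- list. Of the WT peaks, 7 of 32 (21.9%, 11.02 to 38.8) had no Shh-/- counterpart, against 48.5% of the whole WT list. Intervals cover counting error of peaks only. The cluster was thus above its list in peaks found only in Shh-/- and below its list in peaks found only in WT. By member, 10 of the 26 were nearest to Hoxb4 and 7 to Hoxb5, with 3 each at Hoxb6 and Hoxb3 and 1 each at Hoxb8, Hoxb7 and Hoxb2. With all coding starts of each gene allowed, 5 of the 10 at Hoxb4 were nearest to a Hoxb3 start, which left 5 at Hoxb4 and gave 8 to Hoxb3.

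Many of the unshared peaks were small and close to a peak of the other genotype. The 26 Shh-/- peaks had a median width of 200 bp and a median log2 ratio of 2.74, where the 22 shared peaks had 625 bp and 3.596. The median gap to the nearest WT peak was 550 bp (0 to 2850 bp), and 13 of 26 lay within 500 bp of one. When peaks no more than 500 bp apart were also called shared, 27.1% of the Shh-/- Hoxb peaks (13 of 48) had no counterpart, against 20.2% of the list. With peaks of a list within 1 kb merged first, 25% (3 of 12) had none, against 31.5% of the list, so the order turned. Counted by base pairs, 48.2% of the Shh-/- H3K27ac bases at Hoxb lay outside WT peaks, against 29.5% of the list. The cluster thus stayed above its list by peaks, by base pairs and with the gap of 500 bp, and fell below it with merged peaks.

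The better-ranked 50% of each list was then classified against the other list whole. Here 10 of 27 Shh-/- H3K27ac peaks (37.0%, 21.5 to 55.8) had no WT counterpart, against 17.3% of the better-ranked peaks of the whole list, and 2 of 13 WT peaks (15.4%, 4.33 to 42.2) had no Shh-/- counterpart, against 24.9%. The best-ranked of the 10 was chr11:96343300-96343549, 220 bp from the Hoxb3 start, at rank 9243 with a log2 ratio of 3.79, and its sequence is printed above. Hoxb5 had 4 of the 10, at chr11:96302950-96303099, chr11:96304800-96305049, chr11:96306350-96306549 and chr11:96308450-96308649, with log2 ratios between 3.02 and 3.26. Hoxb4 had 3, of which chr11:96318150-96318399 (rank 17419, log2 ratio 3.21) covered the Hoxb4 start beside the promoter printed above, and the others were chr11:96320750-96321049 and, in an intron of Hoxb3, chr11:96330200-96330499, which lay 1550 bp from the nearest WT peak. The last 2 were chr11:96291100-96291349 near Hoxb7 and chr11:96340750-96340999 in Hoxb3. The WT pair was chr11:96326800-96327049, printed above (rank 17151, log2 ratio 3.43), and chr11:96323250-96323549, which adjoined a Shh-/- peak with no gap.

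Where the genotypes shared a region, its enrichment was compared after overlapping or adjoining peaks of both lists were joined. Of 52 joined H3K27ac regions in the cluster, 23 were in both lists, 24 in Shh-/- only (46.2%, against 25.0% of all 61549 regions) and 5 in WT only (9.62%, against 36.8%). Of the 23, 16 ranked better in Shh-/-, against 44.4% of all 23549 shared regions. The difference in log2 ratio, Shh-/- minus WT, had a median of 0.26 (SD 0.61 over regions, range -1.29 to 1.24), where all shared regions had a median of -0.22. Shared Hoxb regions were thus mostly more enriched in Shh-/-, with a spread over regions wider than the median difference.

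The higher differences lay at Hoxb7 and Hoxb8 and at Hoxb2 and Hoxb3. Between Hoxb8 and Hoxb7, chr11:96285900-96286399 went from a log2 ratio of 2.42 in WT to 3.66 in Shh-/-, and chr11:96284200-96285149 from 2.86 to 3.94. At Hoxb3, chr11:96341450-96342749 went from 3.99 to 5.00, and at Hoxb2, chr11:96351800-96355449 went from 5.04 to 5.94. Between these ends, the region with the most negative difference, chr11:96325300-96326049 in an intron of Hoxb3, went from 3.95 to 2.67. The regions over Hoxb4 (chr11:96319450-96320649, 4.36 to 3.99) and Hoxb5 (chr11:96303600-96304449, 3.78 to 3.30) were also lower in Shh-/-. Relative to the median of all shared regions, their differences were only -0.15 and -0.26. Upstream of Hoxb4, chr11:96314150-96315249 was higher in Shh-/- (3.80 to 4.29), and at Hoxb2, chr11:96350700-96351599 was lower (4.09 to 3.86). The cluster was therefore not uniform. The largest increases lay toward both ends of its acetylated stretch, and regions higher and lower in Shh-/- were mixed along it.

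**Figure D4:**
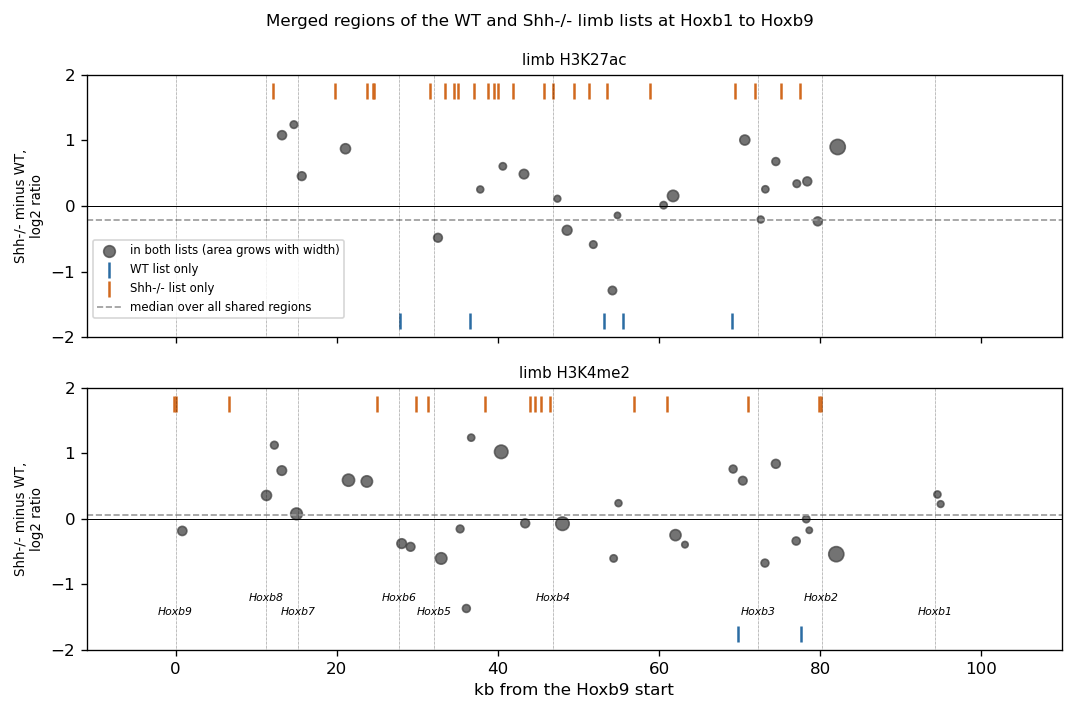
Joined WT and Shh-/- regions from Hoxb9 to Hoxb1 for limb H3K27ac (top) and limb H3K4me2 (bottom), by distance from the Hoxb9 start in kb (x axis) and the difference in log2 ratio of ChIP to input, Shh-/- minus WT (y axis); circles are regions in both lists, ticks are regions in 1 list and the dashed line is the median of all shared regions. In H3K27ac 18 of 23 circles lie above the dashed line and 24 ticks are Shh-/- only, while in H3K4me2 14 of 30 circles lie above it. Of the joined H3K4me2 regions, counting Hoxb13, which lies outside the panel, 17 were Shh-/- only and 2 WT only.

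The same comparison was made for H3K4me2. Without a counterpart were 4 of 39 WT peaks (10.3%, 4.06 to 23.6), against 25.7% of the list, and 17 of 60 Shh-/- peaks (28.3%, 18.5 to 40.8), against 22.5%. In the better-ranked 50%, classified against the other list whole, 0 of 18 WT peaks (up to 17.6%) and 1 of 23 Shh-/- peaks (4.35%, 0.772 to 21.0) had none, against 3.59% and 4.03%. That peak, chr11:96332300-96332599 in an intron of Hoxb3 (rank 7391, log2 ratio 3.83), lay 50 bp from a WT peak. Of 49 joined H3K4me2 regions, 30 were in both lists, 2 in WT only (4.08%, against 20.6% of all 40934) and 17 in Shh-/- only (34.7%, against 18.6%). By presence of joined regions, H3K4me2 thus shifted toward Shh-/- as H3K27ac did, while its covered base pairs and its shared regions did not. Among the shared regions 14 of 30 ranked better in Shh-/-, against 50.0%, with a median difference in log2 ratio of -0.04 (SD 0.61), where all shared regions had 0.05. The H3K4me2 peaks of the cluster were narrower in Shh-/-, with a median width of 250 bp where WT had 600 bp, and the medians of the whole lists were 400 bp and 450 bp.

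The best-ranked H3K4me2 peak of the cluster was at Hoxb2 in WT (chr11:96351650-96355099, rank 1904, log2 ratio 4.36). In Shh-/- it lay at the other end of the acetylated stretch, over the last exon of Hoxb8 (chr11:96284450-96285199, rank 914, log2 ratio 4.65). By share of body under H3K4me2, Hoxb8 was highest in WT at 82.1%, followed by Hoxb4 at 70.7% and Hoxb2 at 67.7%. In Shh-/- Hoxb2 was highest at 64.9%, followed by Hoxb4 at 60.3% and Hoxb8 at 55.7%.

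The 26 unshared Shh-/- H3K27ac peaks fell partly on chromatin with other marks. A WT H3K4me2 peak overlapped 9 of them (34.6%, 19.4 to 53.8), against 12.3% of all unshared peaks of the list, and a Shh-/- H3K4me2 peak overlapped 7 (26.9%, 13.7 to 46.1), against 11.9%. H3K27me3 overlapped 6 (23.1%, 11.03 to 42.1), against 0.570%. Of the 22 shared Hoxb H3K27ac peaks, WT H3K4me2 overlapped 19 (86.4%, 66.7 to 95.3), against 45.6%, Shh-/- H3K4me2 also overlapped 19, against 43.7%, and H3K27me3 overlapped 4 (18.2%, 7.31 to 38.5), against 0.783%. Overlap with H3K27me3 was thus above the whole list for both kinds of Hoxb peak. Both overlapping marks cover far more of these blocks than of the genome, so the whole list is no baseline for their density here.

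The marks were then read at the starts. A peak from 2 kb before to 1 kb after the start was found for H3K27ac at 6 of 10 members in WT (Hoxb2 to Hoxb7), against 41.1% of 21826 coding genes. In Shh-/- it was also 6 of 10, against 38.2%, with Hoxb8 in place of Hoxb6, and both of those calls rested on peaks of 100 bp in the poorer-ranked 50% of their list. H3K4me2 marked 9 of 10 starts in WT (all but Hoxb13), against 60.6%, and 10 of 10 in Shh-/-, against 60.0%. H3K27me3 marked 8 of 10 in Shh-/-, all but Hoxb2 and Hoxb3, against 12.0%. With FDR under 0.05 in every list, H3K27me3 marked 7 of 10, against 9.97%.

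H3K27me3 in Shh-/- limb, the mark of Polycomb silencing, followed gene order over most of the cluster. It covered 100% of the Hoxb13 body and 92.2% of Hoxb9, then 45.8% of Hoxb8, 52.0% of Hoxb7 and 29.4% of Hoxb6. It covered 0% of Hoxb5, Hoxb4 and Hoxb2 and 2.84% of Hoxb3. Coverage therefore went down from Hoxb13 toward Hoxb2, apart from Hoxb7 and the few bases in Hoxb3, and Hoxb1 at the far end was covered again at 65.8%.

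The 3 widest H3K27me3 peaks of the cluster lay at Hoxb13 and Hoxb9. The peak chr11:96186000-96198649 spanned Hoxb13 whole with 12650 bp (rank 781, log2 ratio 4.30) and was the 21st widest of the 20830 in the list. Next to it, chr11:96198900-96205849 was the best-ranked H3K27me3 peak of the cluster (6950 bp, rank 381, log2 ratio 4.45) and holds the CpG-free sequence printed above. At Hoxb9, chr11:96267800-96274799 covered the start and most of the gene with 7000 bp (rank 416, log2 ratio 4.67). The peaks nearest to the starts of Hoxb6, Hoxb5 and Hoxb4 were at most 1100 bp wide and ranked no better than 5557. A wider peak in the Hoxb6 body, chr11:96292000-96293749 (1750 bp, rank 2099, log2 ratio 3.42), lies nearer to the Hoxb7 start used.

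H3K27me3 and H3K27ac met in the middle of the cluster. In Shh-/- limb 11 of 45 H3K27me3 peaks overlapped an H3K27ac peak (24.4%, 14.2 to 38.7), against 1.91% of the list, and 18 of 45 overlapped an H3K4me2 peak (40%, 27.02 to 54.5), against 20.1%. The second order turned in the better-ranked 50% of both lists (19.4% against 24.3%) and by base pairs (10.1% against 16.4%). In the other direction, 10 of 48 H3K27ac peaks (20.8%, 11.7 to 34.3) overlapped H3K27me3, against 0.701%. With FDR under 0.05 in every list, 6 of 30 H3K27me3 peaks overlapped H3K27ac (20.0%, against 2.47%). In that setting 6 of 45 H3K27ac peaks overlapped H3K27me3 (13.3%, against 0.535%). By nearest start, Hoxb7 had 6 of the 11, with 1700 bp under both marks, Hoxb4 had 2, and Hoxb8, Hoxb6 and Hoxb5 had 1 each. One of those given to Hoxb7 is the peak in the Hoxb6 body named above, with 1050 bp under H3K27ac, and one given to Hoxb4, chr11:96325450-96325699, lies in an intron of Hoxb3. The list shares are no baseline for density, because H3K27me3 and H3K27ac covered 354 and 161 bp per kb here, against 3.85 and 7.23 genome-wide. By length the overlap was 2500 bp, which was 4.87% of the H3K27me3 bases and 11.1% of the H3K27ac bases, so most of each mark lay apart from the other. Each share was below the other mark's coverage of the 2 blocks pooled. Coverage differs along the cluster, as Hoxb13 and Hoxb9 had no H3K27ac in their bodies and Hoxb2 had no H3K27me3. The pooled comparison therefore does not tell how far the marks overlap where they meet. The lists came from mixed cells of whole buds, so both marks on 1 allele and each mark in different cells cannot be told apart.

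In NIH3T3 cells, purmorphamine and DMSO are compared to find acetylation that answers the Hedgehog pathway, and the Hoxb cluster gave no peak to compare. Over all genes, 36.5% of purmorphamine peaks had no DMSO counterpart and 41.1% of DMSO peaks had no purmorphamine counterpart, while at Hoxb there were 0 peaks to classify. No member had a start with a peak in either arm, against 50.2% of coding genes with DMSO and 50.3% with purmorphamine. The nearest peaks lay 100067 bp before the Hoxb13 block and 347494 bp after the Hoxb1 block with DMSO, and 107367 and 319294 bp away with purmorphamine. Of the 32 WT limb H3K27ac peaks of the cluster, 0 overlapped a DMSO NIH3T3 peak (up to 10.7%), against 38.2% of the WT limb list. The other Hox clusters did carry H3K27ac there, at 7 of 11 Hoxa starts in both arms, 3 of 9 Hoxc starts with DMSO and 2 of 9 with purmorphamine, and 3 of 9 Hoxd starts in both. Antibody and cell number differ between limb and NIH3T3 samples, so tissue and assay cannot be told apart in this comparison.

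Non-coding genes inside the cluster were also read. Mir196a-1 lies before Hoxb9 and Mir10a before Hoxb4, and both miRNAs are known to target Hox transcripts. In Shh-/- limb 1 gene lies wholly under H3K27me3 and the other mostly under a weak H3K27ac peak, so their mature sequences are printed from RefSeq. The seed (bases 2 to 8), the part that pairs with targets, is in capitals.
mmu-miR-196a-5p, chr11:96265187-96265208: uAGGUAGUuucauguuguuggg
mmu-miR-10a-5p, chr11:96317186-96317208: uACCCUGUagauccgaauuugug
The seeds differ, AGGUAGU for miR-196a and ACCCUGU for miR-10a. All 102 bp of Mir196a-1 lay under H3K27me3 and 0 bp under H3K27ac in either genotype. Of Mir10a, 85 bp lay under H3K27ac in Shh-/- and 0 bp in WT, and 35 bp under H3K27me3. Those 85 bp came from 1 peak of 200 bp, chr11:96317050-96317249, near the foot of the Shh-/- list. It stood at 89.1% of the list by rank, with a log2 ratio of 2.51 where the list minimum was 2.30. The antisense gene Hoxb5os, which spans Hoxb6 and Hoxb5, had 1250 bp under H3K27ac in WT and 3150 bp in Shh-/-, and Hoxb3os had 5042 and 6592 bp. ChIP-seq reads carry no strand, so these bases are those of the overlapping Hoxb genes as well.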

How the data were processed

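The authors aligned reads to mm10 and called peaks with CisGenome on both replicates of a condition together against input. The submitters' processing notes name Bowtie2 2.2.5, limma and mm10. Besides rank, position and length, every deposited peak has 4 measures. They are the peak caller's false discovery rate (a q-value deposited by the authors), a deposited score (the peak's largest ChIP-against-input statistic), the deposited log2 ratio (ChIP over input), and the deposited −log10 of its smallest Poisson p-value. These values were used as deposited to rank, filter and describe peaks within a list. The deposited lists differed in their highest FDR, from 0.000805 (purmorphamine NIH3T3 H3K27ac) to 0.255 (Shh-/- limb H3K27me3). Of the H3K27me3 list 47.2% of peaks were under 0.05, and so were 30 of its 45 Hoxb peaks. Reads per library are not in the lists, so depth is unknown here and a fit of reads per library with limma was not made.

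The 7 lists were used on chromosomes 1 to 19, X and Y, which left out 0 to 34 peaks a list. Starts of lists are multiples of 50 and were read as 1-based, so coordinates may be off by 1 bp. Gene positions were taken from GENCODE vM21 (basic), with 1 start per gene (the APPRIS principal transcript), and sequences from GRCm38.p6 and RefSeq. Prac1 and Prac2 were not found in the annotation used. RefSeq promoters were at hand for 3 of 10 members. Overlap was at least 1 bp. Shares carry 95% Wilson intervals. Columns of samples left unused numbered 0. Covered base pairs were compared over genes with a peak in either list, at 1.5-fold. Motifs were exact matches on either strand.

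The members and gene lists were chosen with earlier results of these data known. Named were all 10 members, the best-ranked peak of each member per list, unshared peaks in the better-ranked 50% of a list and the 3 widest H3K27me3 peaks. The single regions compared by log2 ratio and the neighbours of the cluster were picked after their values were seen. Python 3.11.15 with numpy 2.4.6, pandas 2.3.3, scipy 1.17.1 and matplotlib 3.10.9 was used. The overlap functions were tested on simulated data and compared with bedtools 2.31.1, and both counted the same overlapping peaks in 10 of 10 pairs of lists. Alternatives changed the overlap (50%, or a gap of 500 bp), the lists (FDR under 0.05, the better-ranked 50%, equal sizes), the unit (merging within 1 kb, or base pairs), the flank (none, or 20 kb) and the start.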

Additional observations from a re-analysis of the deposited data

How the results depend on the processing

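No paired analysis was possible because each list pools both replicates of a condition, and for the same reason no replicate could be left out. The NIH3T3 comparison of unshared Hoxb peaks has no value under any setting, as both lists hold 0 Hoxb peaks. Depth per library is unknown, so a peak that is missing from a list may lie just under its threshold. Of 134 alternative values for the main counts and shares, 106 stayed close to the value reported and 28 moved. A share was called close inside the Wilson interval of the value reported, and a count or length within 1.5-fold. So 4 starts with WT H3K27ac in the better-ranked 50% counted as close to 6. Without a flank, 43.3% unshared for Shh-/- H3K27ac also counted, though its excess over the list fell from 15.8 to 4.97 points. The 106 include every NIH3T3 value, all 0, which could not move because the nearest NIH3T3 peak lay 100067 bp from the blocks. Alternatives for covered base pairs were added after seeing the data. The cause of the 28 moves was not tested. An overlap of 50% of the peak gave 68.8% unshared for Shh-/- H3K27ac, 30.8% for WT H3K4me2 and 17.8% for H3K27me3 peaks overlapping H3K4me2. A gap of 500 bp gave 3.13% unshared for WT H3K27ac, 27.1% for Shh-/- H3K27ac, 0% for WT H3K4me2 and 11.7% for Shh-/- H3K4me2, and 57.8% for H3K27me3 overlapping H3K4me2. Merging peaks within 1 kb gave 6.67%, 25%, 0% and 16.7% unshared in the same order, 66.7% for H3K27me3 overlapping H3K27ac, 83.3% for H3K27me3 overlapping H3K4me2 and 50.0% for H3K27ac overlapping H3K27me3. Base pairs in place of peaks gave 31.6% unshared for WT H3K4me2, 4.87% and 10.1% for H3K27me3 overlapping H3K27ac and H3K4me2, and 11.1% for H3K27ac overlapping H3K27me3. In the better-ranked 50% of every list H3K27me3 overlapped H3K4me2 at 19.4%, and 0 members had 1.5-fold more H3K4me2 in Shh-/-. Gene bodies without a flank gave 57.7% for H3K27me3 overlapping H3K4me2, covered lengths of 186, 345 and 307 bp per kb for WT H3K27ac, WT H3K4me2 and Shh-/- H3K4me2, 3 members with 1.5-fold more H3K27ac and 1 with 1.5-fold more H3K4me2 in Shh-/-. With the nearest of all coding starts, 11 of 70 peak counts per member moved, where the NIH3T3 counts among the 70 were all 0. Most moves were between Hoxb4 and Hoxb3 and between Hoxb7 and Hoxb6. Shh-/- H3K27ac went from 16 to 9 peaks at Hoxb4 and from 9 to 16 at Hoxb3. With 20 kb on either side 1 member had 1.5-fold more H3K4me2. Against the whole list, the order turned for Shh-/- H3K27ac with merged peaks (25% against 31.5%), for WT H3K4me2 in the better-ranked 50% of both lists, where the counterpart must be in the better-ranked 50% as well (22.2% against 21.0%) and by base pairs (31.6% against 28.7%), for Shh-/- H3K4me2 with merged peaks (16.7% against 18.5%) and without a flank (20.0% against 22.5%), and for H3K27me3 overlapping H3K4me2 in the better-ranked 50% (19.4% against 24.3%) and by base pairs (10.1% against 16.4%).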

Other observations

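The CpG content of Hoxb peaks was read in 300 bp windows around each peak. H3K27ac windows held a median of 8.5 CpG in WT and 6 in Shh-/-, where all windows of either list held a median of 4. Unshared Shh-/- windows held a median of 5 CpG and shared ones 13, and in WT the medians were 4 and 10. H3K27me3 windows held a median of 7 CpG, where all windows of that list held 3, and H3K4me2 windows held 9 in WT and 7.5 in Shh-/-, where all held 9.

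The letters GACCACCCA, a GLI site, occurred 0 times in the 2 blocks on either strand, and in 0.225% of RefSeq promoters. TGATNNAT occurred 46 times, 15 of them under an H3K27me3 peak, 3 under a WT H3K27ac peak and 5 under a Shh-/- H3K27ac peak. These counts stood in the same order as the coverage of the blocks by these peaks, 354, 105 and 161 bp per kb. They do not tie the letters to a mark. The DR5 type of retinoic acid response element, through which retinoic acid switches on anterior Hox genes, occurred 2 times, at chr11:96341236-96341252 in Hoxb3 under a WT H3K4me2 peak and at chr11:96372776-96372792 beyond Hoxb1 under no peak. It occurred in 0.0883% of RefSeq promoters. Absence of a match says only that these letters are not in these blocks.

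In the stretch between the 2 blocks, H3K27me3 had 6 peaks over 7100 bp, H3K4me2 had 2 peaks in WT and 1 in Shh-/-, and H3K27ac had 0 in both genotypes.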
